A study of Drosophila melanogaster with 57 samples.

Results

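The UDP-glycosyltransferase (Ugt) genes of *Drosophila melanogaster* were described across fly strains that lack genes of hydrogen sulphide production. Every gene whose FlyBase symbol begins with Ugt and a digit was taken, which gave 35 of the 17559 genes in the count table. The strains carried CRISPR/Cas9 deletions of cystathionine beta-synthase (CBS), cystathionine gamma-lyase (CSE) and mercaptopyruvate sulphurtransferase (MST), made to ask which processes depend on these enzymes of sulphur metabolism. Whole bodies of both sexes were sequenced from MST-/-, CSE-/-, CBS-/-(5), CBS-/-(8), DD1 (CBS-/-(5) combined with CSE-/-), DD2 (CBS-/-(8) combined with CSE-/-) and the control strain 58492, whole bodies of males from DD2 backcrossed on yw, and thoraxes of both sexes from CBS-/-(5) and the control. The flies were 5 days old and each of the 19 groups had 3 libraries, 57 in all.

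The control stock is a yellow white stock that expresses Cas9 under an actin promoter and carries a DNA ligase 4 mutation. The deletions were induced in its embryos and each was marked with an mCherry reporter driven by the actin 5C promoter, which the control lacks, so a deletion and its reporter cannot be told apart. Founders were outcrossed to yw and the doubles were built through balancer crosses, while no such crosses are described for the control. A deletion therefore cannot be told apart from the strain background either, and each deletion is represented by 1 strain, or by 2 for CBS. The labels do not say whether the 3 libraries of a group came from separate vials, so the p-values measure the spread between these samples, which may be technical.

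Ugt enzymes sit in the membrane of the endoplasmic reticulum and move the sugar of a UDP-sugar onto a small lipophilic acceptor. In insects the sugar is mostly glucose, and the acceptors include plant compounds, insecticides, pigments and odorants, which become more soluble and easier to export. Together with cytochromes P450 and glutathione transferases they make up the detoxification equipment of the gut, fat body and Malpighian tubules, and some members act in the antenna. Physiological acceptors of most single fly Ugt enzymes are not known, so the genes below are described by family branch, position and level.

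The 35 genes stood at 19 loci, of which 13 held a single Ugt gene and 6 held the other 22. The largest group was a run of 9 genes on chromosome 3R, at 11151026 to 11177910 of the dm6 assembly: Ugt302K1, Ugt302E1, Ugt302C1, Ugt35E1, Ugt35E2, Ugt35B1, Ugt35A1, Ugt304A1 and Ugt303A1. Ugt36F1, Ugt36D1 and Ugt36E1 were neighbours on 2L at 18819344 to 18829059, and Ugt303B3, Ugt303B1 and Ugt303B2 on 3R at 23532945 to 23538908. Ugt49B1 and Ugt49C1 adjoined each other on 2R at 21212880 to 21217779. Ugt37A2 and Ugt37A3, on 3R at 12739642 to 12743680, lay 33.8 and 36.1 kb from the MST gene. Exons of 5 members (Ugt36A1, Ugt307A1, Ugt36E1, Ugt37A1 and Ugt49B1) overlap a gene on the opposite strand. The library kit kept the strand, but the strand setting of the counting was not given in the sources used here, so reads of these overlaps cannot be assigned with certainty.

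Some libraries stood apart. Counts on genes ran from 19612605 to 28768678 in the 21 libraries of whole females and from 9705034 to 18623886 in 23 of the 24 libraries of whole males, while 1 library labelled DD2 backcrossed on yw held 7321 counts and was left out. Genes specific to ovaries were found in male libraries at 17.3% of the female level on average in CBS-/-(5), 16.4% in CBS-/-(8) and 13.2% in CSE-/-, against 6.17% in control males, and at 0.875 to 1.13% in the other male groups. DD1 female replicate 2 carried male-specific genes at a median of 3.43% of the male level, against at most 0.0231% in the other 20 female libraries. The deleted genes followed the labels in most groups. Cbs, for example, had at most 1.36 CPM in females of the strains lacking it, against 199 to 204 CPM in control females. CPM is the read count of a gene scaled to the library's total on genes. The libraries labelled DD2 backcrossed on yw, however, carried Cbs at 33.3 to 34.4 CPM and Cth, the gene of CSE, at 32.7 to 45.4 CPM. In CSE-/- males Cth had 15.4 to 26.5 CPM, against 7.24 to 7.78 in CSE-/- females and 58.1 to 71.4 in control males. DD1 males had Cth at 3.14 to 3.95 CPM, and the source of the higher level in CSE-/- males was not tested. The thorax libraries differed most: 2.257 to 37.544% of their reads fell on no gene, and control female thorax replicate 1 had a scaling factor of 0.285, so thorax levels compared between strains or sexes are given as scaled CPM, after TMM scaling, which equalises libraries on the bulk of their genes. Ranks per kilobase and comparisons of thoraxes with whole bodies are given as unscaled CPM, beside fold changes from scaled libraries.

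In the control strain the family was far more strongly represented in whole males than in whole females. The summed Ugt level was 487.7 ± 9.16 CPM in control females and 1582.7 ± 7.16 CPM in control males (SD, n = 3 each). Of the 35, 5 genes never reached a group mean of 1 CPM in any strain, sex or tissue (Ugt307A1, Ugt35D1, Ugt37C1, Ugt37E1 and Ugt49B2, with highest group means of 0.187 to 0.969 CPM), and they are not described further by strain. Of the 35 genes, 32 passed the filter on low counts in at least 1 comparison, 29 in every comparison, and 3 in none.

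Per kilobase of exon, which allows genes to be ranked against each other, whole control females had most RNA from Ugt316A1, at a mean of 33.8 CPM per kb (33.1 to 35.0). Ugt35C1 (22.4, range 17.7 to 30.0) and Ugt302C1 (22.3, range 21.4 to 23.8) followed in whole females, and their ranges overlapped. Whole control males ranked Ugt35C1 first at 142 CPM per kb (134 to 150), Ugt49B1 next at 112 (108 to 117) and Ugt35B1 after it at 102 (99.2 to 107), with no overlap between neighbours. Ugt35B1 is known for its expression in the antenna. In male thoraxes the same genes led, with Ugt35C1 at 110.0 CPM per kb (101 to 124), Ugt49B1 at 77.3 (75.3 to 80.3) and Ugt35B1 at 74.0 (66.5 to 88.9). Their order in female thoraxes, Ugt49B1 at 47.1 (12 to 75.8), Ugt35B1 at 41.1 (9.48 to 67.4) and Ugt35C1 at 35.1 CPM per kb (11.7 to 56.0), rested on unscaled levels that varied widely between libraries, with replicate 1 the lowest for each gene, although Ugt49B1 was first within each of the 3 libraries.

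**Figure D1:**
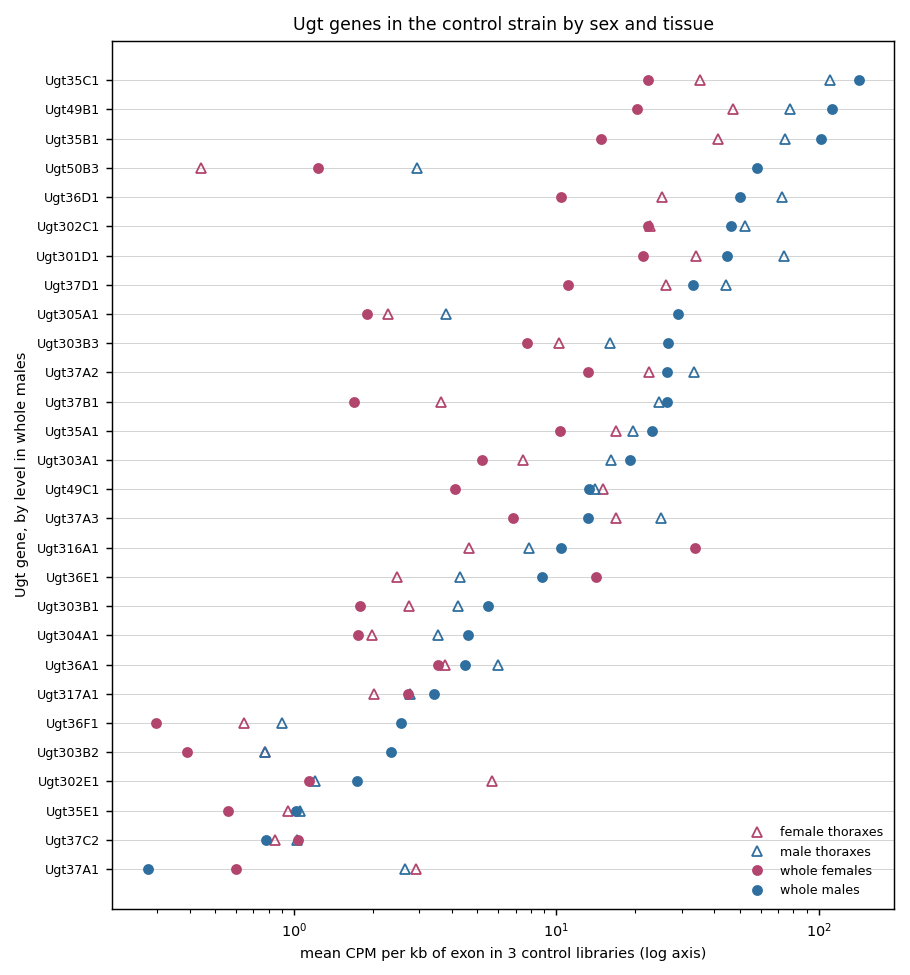
Mean CPM per kb of exon (log axis) of Ugt genes in the control strain, with open triangles for thoraxes, filled circles for whole bodies, and 1 colour per sex; each symbol is the mean of 3 libraries. Most whole-male circles lie right of the whole-female circles, with Ugt316A1 among the exceptions, and Ugt35C1 stands highest in whole males at 142 CPM per kb.

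Of 32 Ugt genes tested between whole control females and males, 5 were higher and 23 lower in females, with a median log2 difference of -1.37. Over all 13535 genes tested 90.2% were called (edgeR quasi-likelihood test, Benjamini-Hochberg adjusted p under 0.05, as in every comparison here), with a median of -0.86, so a call as such sets the family little apart. Ugt316A1 was the most female-biased member above 5 CPM, with 104, 110 and 105 CPM in control females against 33.9, 30.9 and 33.8 CPM in control males (log2 difference 1.81 ± 0.166, SE). Ugt50B3, whose locus spans 52.9 kb, was at the other extreme. It had 3.85, 4.07 and 4.36 CPM in control females, against 203, 181 and 192 CPM in control males (log2 difference -5.43 ± 0.235, edgeR adjusted p = 2.09e-18). Ugt37B1 (-3.85) and Ugt305A1 (-3.83) were the next most male-biased genes above 5 CPM. Ugt49B2 had 0 counts in the control females and 3 to 8 counts in the control males.

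In thoraxes, which lack gonads, few Ugt genes were called between the sexes. edgeR called 1 of 30, Ugt36D1 (2.29% of all genes were called), and DESeq2 called 4. Ugt36D1 stood at 73.7, 66.5 and 90.5 scaled CPM in control female thoraxes against 140, 131 and 189 in control male thoraxes. The groups did not overlap (log2 difference -0.99 ± 0.202, edgeR adjusted p = 0.0389), but the call was lost without control female thorax replicate 1 or 2 or without any 1 of the male libraries (adjusted p 0.0544 to 0.127). Ugt37B1 had 9.1, 2.72 and 17.8 scaled CPM in control female thoraxes against 34.5, 31.7 and 55.3 in control male thoraxes, again without overlap, and was not called (-2.04 ± 0.582, edgeR adjusted p = 0.0896).

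Against whole bodies of the same sex, more Ugt genes were higher than lower in female thoraxes after TMM scaling. Unscaled, the summed Ugt level was 663.4 ± 414 CPM in control female thoraxes (203.7 to 1008), against 487.7 ± 9.16 CPM in whole control females. The scaling factor of control female thorax replicate 1 was 0.223 in the fit of both tissues. Of 31 genes, 24 were higher and 2 lower in control female thoraxes, with a median log2 difference of 1.70 against 0.10 over all genes, of which 72.3% were called. Ugt302E1 had the largest difference there among genes above 5 CPM (3.27 ± 0.879), although unscaled values in the control female thoraxes spread over 1.65, 4.36 and 21.1 CPM, against 1.93, 2.32 and 1.20 CPM in whole control females. Ugt37A1 followed at 3.17, and Ugt316A1 (-1.98) and Ugt36E1 (-1.66) were the genes lower in the female thorax. In males 10 genes were higher and 3 lower in thoraxes than in whole bodies, and 57% of all genes were called. The unscaled sum, in contrast, was lower in control male thoraxes (1308.2 ± 14.9 CPM) than in whole control males (1582.7 ± 7.16 CPM). In unscaled values, Ugt37A1 had 3.43, 6.78 and 2.82 CPM in control male thoraxes, against 0.585, 0.447 and 0.340 CPM in whole control males (log2 difference 3.80 ± 0.383, edgeR adjusted p = 3.16e-05). Ugt50B3 had 6.69, 21.3 and 1.37 unscaled CPM in control male thoraxes, against 203, 181 and 192 CPM in whole control males (-3.85 ± 0.729). In bulk samples like these, fewer cells of a type and less RNA per cell cannot be told apart.

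With libraries scaled over all genes, more Ugt genes were higher than lower in whole females of each strain lacking CBS, a balance that did not hold in CBS-/-(8), DD1 and DD2 when only thorax genes set the scaling. Of 31 genes tested, 13 rose and 1 fell in CBS-/-(5) females (15.2% of all genes were called), 11 rose and 2 fell in CBS-/-(8) (24.6%), 13 rose and 3 fell in DD1 (30.8%) and 20 rose and 2 fell in DD2 (66.3%). Median log2 changes of the family were 0.68, 0.41, 0.48 and 0.93 in that order, against -0.01, 0.01, 0.03 and 0.02 over all genes. CSE-/- females had 2 higher and 1 lower gene (2.73% of all genes called) and MST-/- females 1 higher gene (0.891%). Over library totals, the summed Ugt level was 838 ± 103 CPM in DD2 females, 717.4 ± 144 in CBS-/-(5), 668 ± 107 in DD1, 620 ± 33.2 in CBS-/-(8), 570.6 ± 29.5 in CSE-/- and 512 ± 30.6 in MST-/-, against 487.7 ± 9.16 CPM in control females (SD, n = 3 each). Leaving out CBS-/-(5) female replicate 3 gave 8 calls in that strain, and leaving out control female replicate 1 or 3 gave 9. DD1 had 8 calls without its replicate 3 or without any 1 control library. Without its replicate 2, the library with male RNA, 12 genes rose and 2 fell in DD1. The MST-/- call was lost without MST-/- female replicate 1 or control female replicate 3. When only CBS-/-(5) and control females were fitted, 1 gene was called in place of 14.

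The balance of higher and lower Ugt genes in females rested on how the libraries were scaled. When TMM factors were taken only from thorax genes, those whose level in control thoraxes was not below that in the whole control flies, the median log2 change of all genes was -0.49 in CBS-/-(5), -0.64 in CBS-/-(8), -0.53 in DD1, -0.98 in DD2, -0.31 in CSE-/- and -0.16 in MST-/- females. Under that scaling 4 Ugt genes rose and 3 fell in CBS-/-(5), 4 rose and 10 fell in CBS-/-(8), 3 rose and 4 fell in DD1, 5 rose and 7 fell in DD2, none rose and 2 fell in CSE-/-, and none was called in MST-/-. Median log2 changes of the family were then 0.03, -0.25, -0.06, -0.18, 0.06 and -0.18 in the order just given. They lay above the medians of all genes in every strain but MST-/-. No Ugt gene called under both scalings had opposite directions. The summed level of germline and ovary markers was 73% of the control in CBS-/-(5) females, 67.1% in CBS-/-(8), 77.4% in DD1 and 57.2% in DD2, and its part in the result was not tested.

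**Figure D2:**
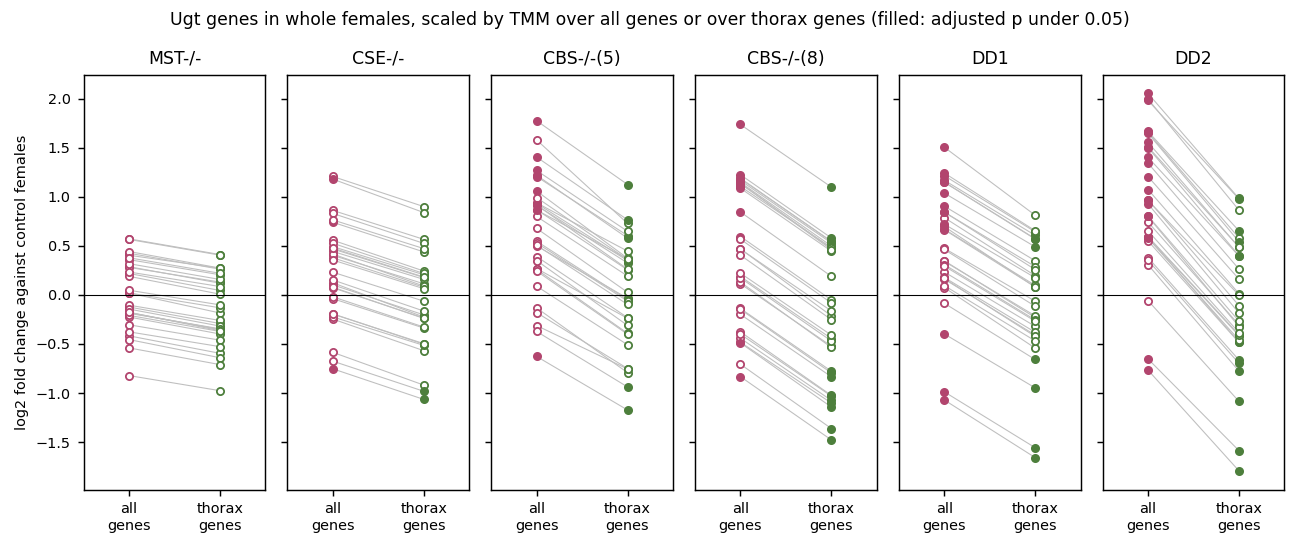
Log2 fold change of each Ugt gene against control females in the 6 deletion strains, scaled by TMM over all genes (left points of each panel) or over thorax genes (right points); lines join a gene, and filled points have an adjusted p under 0.05. The points shift down together under thorax-gene scaling, by most in DD2, where 20 higher and 2 lower genes became 5 and 7.

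Markers of other tissues moved in the same strains. The antennal markers were Orco, lush, Obp69a, Obp83a and Obp83b, and the Malpighian tubule markers were Uro, Irk3, CapaR and salt. From these same data the study had reported lower Orco, lush and Obp69a and higher Uro, Irk3, CapaR and salt in CBS-/- flies. The direction of those genes was thus known beforehand and is no independent result. All 5 antennal markers were lower in females and in males of each of the 4 strains lacking CBS, with summed levels in females of 1.01 to 1.59 CPM in CBS-/-(5), 0.626 to 0.834 in CBS-/-(8), 0.972 to 1.55 in DD1 and 0.843 to 4.67 in DD2, against 12.4 to 16.3 CPM in control females. All 4 Malpighian tubule markers were higher in the same 8 comparisons, with sums in females of 142.3 to 393.7 CPM in CBS-/-(5), 216.9 to 241.6 in CBS-/-(8), 226.2 to 335.3 in DD1 and 299.4 to 742.2 in DD2, against 41.9 to 62.3 CPM in control females. In DD2 females 4 of 5 midgut markers were higher as well. Summed levels in females of the 4 strains were 145 to 337% of the control for flight muscle markers, 173 to 275% for eye markers and 140 to 196% for fat body markers. None of these markers was at 0 in a group. Their part in the Ugt results was not tested.

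In all, 8 Ugt genes were higher in females of all 4 strains lacking CBS, namely Ugt35A1, Ugt304A1 and Ugt303A1 of the 3R run, Ugt49B1 and Ugt49C1, Ugt317A1, and Ugt36F1 and Ugt36E1. Ugt35A1, which lies beside Ugt35B1, was higher in females of every deletion strain. It had 51.7, 46.0 and 47.4 CPM in DD2 females, 43.2, 37.5 and 46.5 in DD1, 40.4, 35.3 and 40.9 in CBS-/-(8), 34.8, 36.6 and 35.6 in CBS-/-(5), 31.7, 30.3 and 33.5 in CSE-/- and 29.6, 28.6 and 26.9 in MST-/-, against 19.3, 20.0 and 15.8 CPM in control females. No library of a deletion strain reached down to the control. The log2 changes were 1.40 ± 0.107 in DD2 (edgeR adjusted p = 7.66e-08), 1.17 in DD1, 1.09 in CBS-/-(8), 0.94 in CBS-/-(5), 0.74 in CSE-/- and 0.57 in MST-/-. Under thorax-gene scaling Ugt35A1 was called in DD1 alone (0.61, edgeR adjusted p = 0.0358), and the changes in the other 5 strains, at 0.40 to 0.45, were not (adjusted p 0.076 to 0.77). With 2 groups only, or without MST-/- female replicate 1 or control female replicate 3, it was not called in MST-/-.

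At the end of the 3R run, Ugt303A1 had 39.0, 30.0 and 31.5 CPM in DD2 females, 22.5, 19.9 and 30.2 in DD1, 25.7, 19.9 and 26.8 in CBS-/-(8) and 21.3, 19.3 and 33.4 in CBS-/-(5), against 11.9, 10.9 and 8.97 CPM in control females. Every library lacking CBS was above every control, while CSE-/- and MST-/- libraries overlapped the control. Its log2 change was 1.67 ± 0.228 in DD2 (edgeR adjusted p = 2.98e-05), and it was the only Ugt gene still higher in all 4 strains under thorax-gene scaling (0.55 to 0.65). Its neighbour Ugt304A1 was lower in level, with 10.4, 7.49 and 7.99 CPM in DD2 females against 4.33, 2.45 and 2.35 CPM in control females (1.51 ± 0.283, adjusted p = 0.000418). All libraries of the 4 strains were above the controls for Ugt304A1 too.

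The adjacent Ugt49B1 and Ugt49C1 rose together. Ugt49B1 had 94.0, 67.2 and 109 CPM in DD2 females against 39.3, 31.8 and 35.8 CPM in control females (log2 change 1.34 ± 0.23, edgeR adjusted p = 0.000213). Ugt49C1 had 19.6, 15 and 31.3 CPM in DD2 females against 7.65, 8.35 and 7.46 CPM in control females (1.5 ± 0.284, adjusted p = 0.000441). Neither gene overlapped its control in any strain lacking CBS, and Ugt49C1 kept its call in CBS-/-(5), CBS-/-(8) and DD2 under thorax-gene scaling (0.40 to 0.77). Being clear of the control was not particular to these strains. CSE-/- females lay above every control for both genes, and MST-/- females for Ugt49C1, without a call. Ugt317A1, which stands alone on 2R, had 12.6, 9.32 and 13.1 CPM in DD2 females against 6.07, 5.20 and 4.01 CPM in control females (1.21 ± 0.27, adjusted p = 0.00137). The lowest library lacking CBS, at 6.19 CPM in CBS-/-(5), was barely above the highest control, and CSE-/- females were also above it, without a call.

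Ugt36E1, described in fly olfactory neurons and in the response to sex pheromone, was higher in females of 5 strains, CSE-/- among them. It had 61.6, 64.8 and 65.8 CPM in CSE-/- females, 71.4, 64.9 and 62.4 in DD1, 61.0, 61.0 and 57.1 in CBS-/-(8), 56.6, 52.0 and 43.0 in CBS-/-(5) and 53.1, 68.6 and 38.3 in DD2, against 31.1, 16.3 and 33.6 CPM in control females. The control libraries were widely spread and still did not meet the 5 strains, whereas MST-/- females (20.9, 24.3 and 29.9 CPM) lay among them. The log2 change was 1.24 ± 0.226 in DD1 (edgeR adjusted p = 0.000841) and 1.18 in CSE-/-, and in DD1 it was 0.66 with an adjusted p of 0.15 under thorax-gene scaling. The summed antennal markers, given above, were lower in 4 of these 5 strains. Ugt36F1, next to it, had 2.12, 1.54 and 2.51 CPM in DD2 females against 0.337, 0.306 and 0.852 CPM in control females (2.06 ± 0.417).

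Ugt301D1 was the only gene lower in females of all 4 strains lacking CBS, and it was also lower in CSE-/-. It had 22.4, 14.6 and 25.7 CPM in DD1 females, 25.0, 23.6 and 26.4 in DD2, 28.8, 24.0 and 31.1 in CBS-/-(5), 28.6, 28.0 and 34.1 in CBS-/-(8) and 28.5, 25.2 and 25.1 in CSE-/-, against 45.3, 41.0 and 41.4 CPM in control females. The 5 strains stood clear of the control. The log2 change was -1.07 ± 0.166 in DD1 (edgeR adjusted p = 0.000221) and -0.49 to -0.77 in the other 4, and it was called in all 5 under thorax-gene scaling too, at -1.06 to -1.79. With upper-quartile scaling it was not called in CBS-/-(8) (-0.43, adjusted p = 0.0795). With 2 groups only its call was lost in CBS-/-(5) and kept in CBS-/-(8), DD1 and DD2.

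Other members had their largest change in DD2 females. Ugt303B3 had 61.5, 47.2 and 51.6 CPM in DD2 females against 13.6, 17.1 and 10.3 CPM in control females (log2 change 1.98 ± 0.255, edgeR adjusted p = 1.72e-05). The highest library of any other group of whole females had 36.0 CPM. Ugt35B1 had 81.9, 45.5 and 102 CPM in DD2 females against 27.0, 26.4 and 20.7 CPM in control females (1.65 ± 0.311). It was also called in CBS-/-(5), at 34.9, 35.0 and 84.6 CPM (1.06), and in DD1, at 45.2, 47.0 and 50.3 CPM (0.91). CSE-/- females, at 46.1, 39.8 and 50.7 CPM, were clear of the control without a call, and CBS-/-(8) females, at 26.1, 28.2 and 25.3 CPM, overlapped it. Ugt302E1 had 6.72, 3.27 and 6.96 CPM in DD2 females against 1.93, 2.32 and 1.20 CPM in control females (1.66 ± 0.604, adjusted p = 0.0232), and this call was lost without DD2 female replicate 1 or 3 or control female replicate 3. Ugt37A3, next to Ugt37A2, had 54.2, 24.4 and 56.8 CPM in DD2 females against 13.2, 8.26 and 12.7 CPM in control females (2.00 ± 0.524, adjusted p = 0.00374). In DD1 females its call (1.51) went with 1 high library, since the 3 had 16.0, 10.7 and 74.2 CPM and overlapped the control. In the 3R run as a whole 7 of 9 genes rose in DD2 females, with a median change of 1.51, against 13 of the other 22 with a median of 0.80. Of all 35 genes, untested ones included, 11 were called in no strain in females and 12 in no strain in males.

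**Figure D3:**
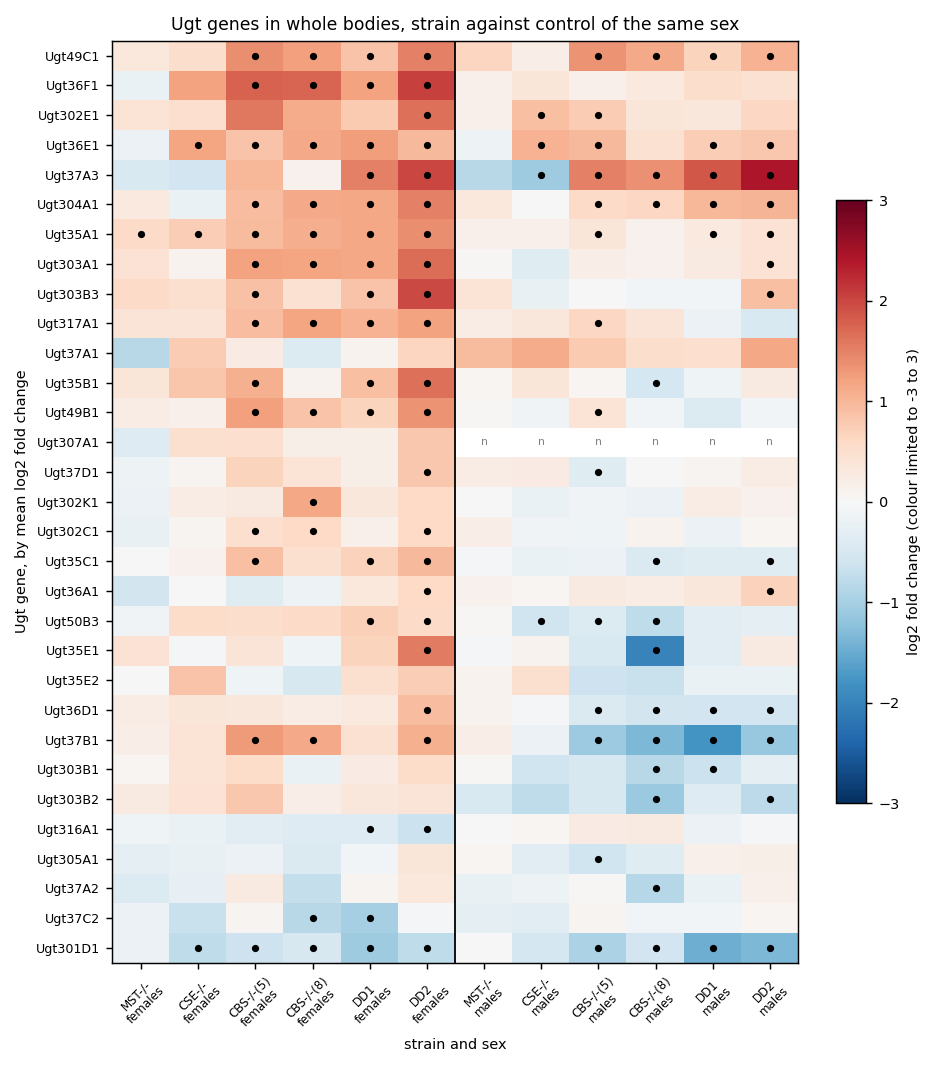
Log2 fold change of each tested Ugt gene (rows) in whole females (left 6 columns) and whole males (right 6 columns) of each deletion strain against the control of the same sex; dots mark an adjusted p under 0.05, n a gene not tested, and colours are limited to -3 to 3. With scaling over all genes, red prevails in females of the strains lacking CBS, with up to 20 genes higher, while in males red and blue are mixed and Ugt37B1 and Ugt301D1 are blue.

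In whole males the family did not move in 1 direction. Of 30 genes tested, 8 rose and 6 fell in CBS-/-(5) males (32.7% of all genes were called), 3 rose and 10 fell in CBS-/-(8) (32.3%), 5 rose and 4 fell in DD1 (12.7%), 8 rose and 5 fell in DD2 (18%) and 2 rose and 2 fell in CSE-/- (3.71%). In MST-/- males edgeR called none, against 1.54% of all genes, 3 had an unadjusted p under 0.05, and DESeq2 called 1. Median log2 changes of the family lay between -0.11 and 0.17, and summed levels between 1288.9 ± 45.8 CPM in CBS-/-(8) and 1645.1 ± 63.3 CPM in MST-/-, against 1582.7 ± 7.16 CPM in control males (SD, n = 3 each). Thorax-gene scaling gave medians of all genes of -0.04 to -0.14 in males, and 4 higher and 9 lower Ugt genes in CBS-/-(5), 3 and 10 in CBS-/-(8), 4 and 6 in DD1, 7 and 6 in DD2, and 2 and 6 in CSE-/-. After the estimated female RNA was subtracted, 9 rose and 2 fell in CBS-/-(5), 3 rose and 7 fell in CBS-/-(8), 4 rose and 7 fell in DD1, 6 rose and 6 fell in DD2 and 2 rose and none fell in CSE-/-. The profile subtracted was that of females of the same strain. CSE-/- males had more Cth than CSE-/- females (15.4 to 26.5 against 7.24 to 7.78 CPM). Whether the female RNA in CSE-/- males had that profile was not tested, and their subtracted values rest on it. The count in CBS-/-(5) was 8 without control male replicate 1 or 2, and that in CSE-/- was 1 or 2 without any 1 of the 6 libraries compared.

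Ugt37A3 showed the largest rise in males. It had 103, 129 and 111 CPM in DD2 males, 50.1, 88.3 and 106 in DD1, 58.2, 62.3 and 43.1 in CBS-/-(8) and 61.6, 39.7 and 75.5 in CBS-/-(5), against 21.2, 21.4 and 23.4 CPM in control males. All libraries lacking CBS were above the controls. CSE-/- males, at 11.6, 8.71 and 10.2 CPM, were below them. The log2 change was 2.43 ± 0.265 in DD2 (edgeR adjusted p = 2.82e-06), 1.86 in DD1, 1.52 in CBS-/-(5) and 1.37 in CBS-/-(8), and -1.07 in CSE-/- (adjusted p = 0.03), where the call was lost after subtraction of female RNA (adjusted p = 0.0528). The rise was called in the 4 strains under both scalings and after subtraction of female RNA. Ugt37A2, next to it, was called only in CBS-/-(8) males, where it fell (-0.86).

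A further 2 genes were higher in all 4 strains lacking CBS. Ugt49C1 had 64.0, 37.0 and 80.5 CPM in CBS-/-(5) males against 26.1, 22.8 and 26.9 CPM in control males (log2 change 1.36 ± 0.213, edgeR adjusted p = 0.000221), and 0.68 to 1.13 in the other 3. Its neighbour Ugt49B1 was called in CBS-/-(5) males alone (0.42), unlike in females. Ugt304A1 had 16.4, 14.8 and 16.0 CPM in DD2 males and 15.1, 17.2 and 16.5 in DD1 males, against 8.52, 7 and 8.58 CPM in control males (1.02 ± 0.182 in DD2, adjusted p = 0.000559). The strains lacking CBS did not overlap the control in either gene. MST-/- males did not overlap it in Ugt49C1 either, at a log2 change of 0.65 that was not called (edgeR adjusted p = 0.146). Ugt49C1 was called in some but not all of the 4 with the replicate block, as was Ugt304A1 with thorax-gene scaling or with 2 groups only. Ugt36E1 had 30.0, 34.7 and 36.3 CPM in CSE-/- males against 18.5, 16.4 and 15.4 CPM in control males (1.05 ± 0.177, adjusted p = 0.00129). It was also higher in CBS-/-(5) (0.98), DD2 (0.82) and DD1 (0.74) males, but was not called by edgeR in CBS-/-(8), whose libraries overlapped the control, although DESeq2 and the fit without a filter called it there. Ugt35A1, so regular in females, had 56.1, 53.4 and 50.5 CPM in DD2 males against 41.9, 40.9 and 41.4 CPM in control males (0.42 ± 0.091).

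In contrast, 3 genes were lower in males of all 4 strains lacking CBS. Ugt37B1, which stands alone on 2L, had 14.0, 12.9 and 13.9 CPM in DD1 males, 14.2, 19.5 and 17.9 in CBS-/-(8), 19.8, 21.2 and 19.1 in DD2 and 20.1, 17.6 and 22.4 in CBS-/-(5), against 50.6, 50.4 and 36.6 CPM in control males. The lowest control was above every library of these strains. Log2 changes were -1.79 ± 0.158 in DD1 (edgeR adjusted p = 2.79e-07), -1.35 in CBS-/-(8), -1.14 in DD2 and -1.10 in CBS-/-(5). Ugt37B1 was the only gene still lower in all 4 after subtraction of female RNA. Ugt301D1 had 29.8, 35.2 and 33.5 CPM in DD1 males against 92.0, 87.0 and 87.6 CPM in control males (-1.47 ± 0.19, adjusted p = 2.27e-05). It fell by 1.34 in DD2, 0.96 in CBS-/-(5) and 0.57 in CBS-/-(8) on the log2 scale, so that in both sexes it was lower wherever CBS was lacking. Ugt36D1, of the same 2L trio as Ugt36E1, had 70.6, 78.1 and 72.1 CPM in DD2 males against 110, 112 and 120 CPM in control males (-0.57 ± 0.103, adjusted p = 0.000687).

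**Figure D4:**
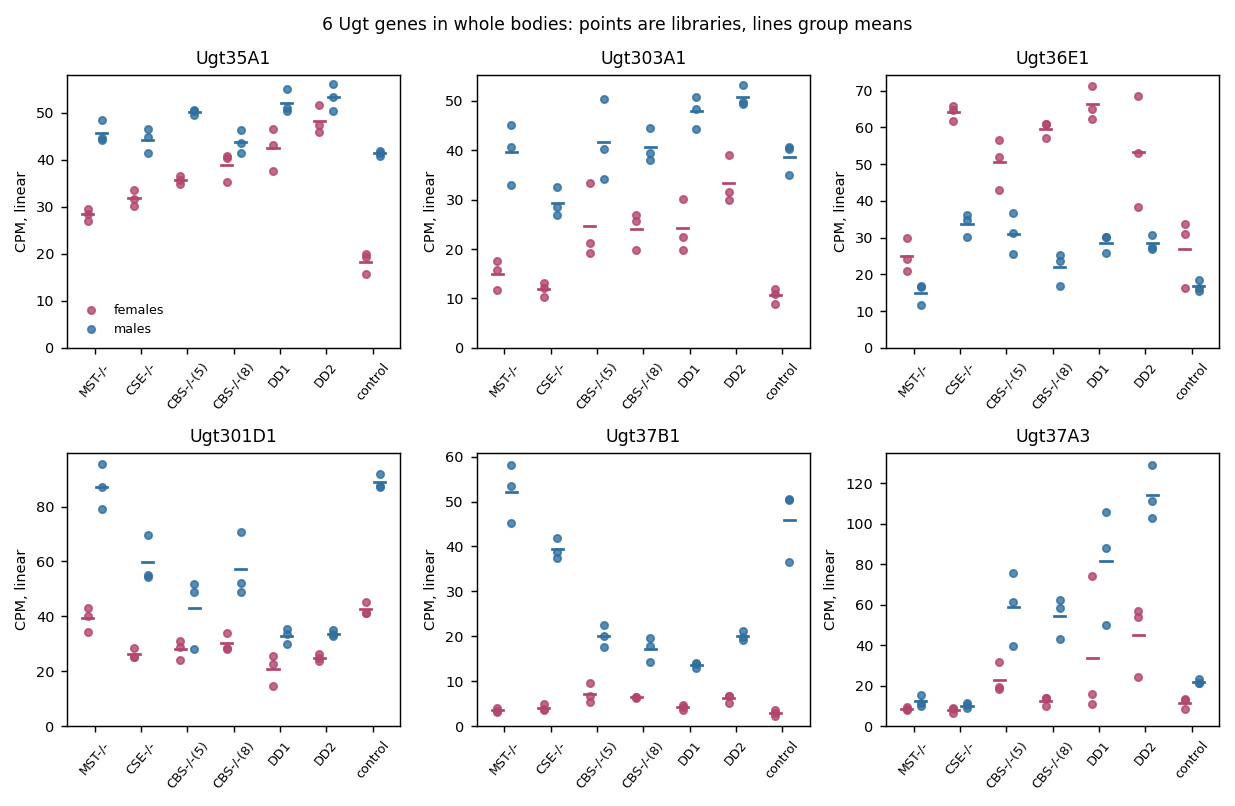
CPM (linear axes from 0) of 6 Ugt genes in whole bodies of the 6 deletion strains and the control, with a colour for each sex; points are libraries and lines group means. Ugt35A1 and Ugt303A1 stand above the control mostly in females, Ugt37B1 below it in males only, Ugt301D1 below it in both sexes, and Ugt37A3 reaches 129 CPM in DD2 males.

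The change in females was tested directly against that in males. Of 32 genes, 12 had a more positive and 1 a more negative change in females in CBS-/-(5) (13.6% of all genes were called), 10 and 1 in CBS-/-(8) (17.8%), 11 and 0 in DD1 (21.5%), 13 and 1 in DD2 (31.3%), 2 and 0 in CSE-/- (0.813%), and none was called in MST-/- (0.214%), where 4 had an unadjusted p under 0.05 and DESeq2 also called none. Median differences of the family were 0.58, 0.58, 0.59 and 0.69 in the 4 strains lacking CBS, against 0.09, 0.10, 0.38 and 0.22 over all genes. Scaling within each sex over thorax genes, a setting added after the data were seen, gave 1 more positive and 1 more negative in CBS-/-(5), 3 and 5 in CBS-/-(8), 2 and 1 in DD1, 4 and 6 in DD2, and none in CSE-/-. Without CBS-/-(5) female replicate 3 there were 4 calls in that strain, without control female replicate 1 or 3 there were 7 or 6, and without CBS-/-(5) male replicate 2 there were 8. There were 7 in CBS-/-(8) without its female replicate 1 and 7 in DD1 without control male replicate 3. In CSE-/- the count was 0 or 1 without any 1 of 10 of the 12 libraries and 2 without CSE-/- male replicate 3 or control female replicate 2.

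Ugt37B1 differed most between the sexes. It had 6.36, 6.41 and 6.58 CPM in CBS-/-(8) females against 2.89, 2.27 and 3.66 CPM in control females, a log2 change of 1.13, where males fell by 1.35. The difference of the changes was 2.44 ± 0.254 in CBS-/-(8) (edgeR adjusted p = 8.37e-08), 2.37 in DD1, 2.34 in CBS-/-(5) and 2.17 in DD2, and 1.96, 1.72, 1.97 and 1.33 in that order with thorax-gene scaling within each sex, all called. In females alone Ugt37B1 was not called in any strain under thorax-gene scaling, whereas the fall in males was, at -1.26 to -1.81. The share of female RNA in male libraries was 1.14 to 27% in CBS-/-(8), 0.638 to 1.35% in DD1, 1.55 to 38.4% in CBS-/-(5) and 0.845 to 1.36% in DD2, against 4.41 to 8.34% in the control, and its part in the result was not tested. Ugt35A1 and Ugt303A1 also differed in every strain lacking CBS (0.56 to 0.99 and 0.98 to 1.17), with the higher change in females, but neither was called with thorax-gene scaling within each sex (0.15 to 0.43 and 0.35 to 0.63).

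Each double was set against its CBS parent strain, from which it differs by the CSE deletion and also by the balancer crosses. In DD1 against CBS-/-(5) females 1 of 31 genes was higher, Ugt36A1 (0.68), and 1 was lower, Ugt37C2 (-1.08), where 3.72% of all genes were called. Both calls were lost without DD1 or CBS-/-(5) female replicate 1, and 1 gene was called without DD1 female replicate 2 or 3. In DD1 against CBS-/-(5) males 2 were higher and 6 lower (36.1% of all genes), among them Ugt49B1 (-0.82), Ugt317A1 (-0.80), Ugt37B1 (-0.69) and Ugt49C1 (-0.68), with Ugt305A1 (0.75) and Ugt37D1 (0.44) higher. The count was 5 without DD1 male replicate 1. The CBS-/-(5) males held 1.55 to 38.4% female RNA, and after its subtraction 1 was higher and 8 lower, while thorax-gene scaling gave 3 higher and 4 lower.

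Setting DD2 against CBS-/-(8), 5 genes were higher in both sexes. In females 6 of 31 rose and none fell (5.41% of all genes), and in males 5 of 30 rose and 2 fell (9.1%). Ugt37A3, Ugt35E1, Ugt35B1, Ugt303B3 and Ugt37A2 were higher in DD2 in both sexes, with log2 differences in females of 1.87, 1.69, 1.53, 1.52 and 1.01, and in males of 1.06, 2.28, 0.80, 0.97 and 1.02. Ugt303B3, for example, had 61.5, 47.2 and 51.6 CPM in DD2 females against 18.8, 16.3 and 21.1 CPM in CBS-/-(8) females, and 88.8, 80.0 and 83.0 CPM in DD2 males against 35.6, 60.2 and 31.6 CPM in CBS-/-(8) males. The groups were apart in both sexes. Ugt317A1 (-0.86) and Ugt301D1 (-0.77) were lower in DD2 males, and Ugt36A1 (0.74) was the sixth gene in females. With thorax-gene scaling 3 rose and 1 fell in females, and after subtraction of female RNA 3 rose and 2 fell in males. Only 2 of the 5 rises in males were called both before and after that subtraction. The count in females was 14 without DD2 female replicate 2, 3 without DD2 female replicate 1 or CBS-/-(8) female replicate 1, and 2 without CBS-/-(8) female replicate 2. None of these 5 genes was called in DD1 against CBS-/-(5) in either sex.

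Fewer Ugt genes were called in thoraxes of CBS-/-(5) flies than in whole bodies, but the thorax fits held 6 libraries and the whole-body fits 21. With 2 groups only, 1 rose and 0 fell in whole CBS-/-(5) females, and 4 rose and 2 fell in whole males. The counts therefore cannot be read as a difference between tissues. In females none of 30 Ugt genes and 0% of all genes were called by edgeR. At an unadjusted p under 0.05 there were 3 Ugt genes and 597 genes in all, and DESeq2 called 2 Ugt genes. In males 1 gene rose and 1 fell of 29, and 1.85% of all genes were called. Ugt36E1 had 23.6, 18.8 and 23.3 scaled CPM in CBS-/-(5) male thoraxes against 9.78, 7.45 and 8.34 in control male thoraxes (log2 change 1.36 ± 0.167, edgeR adjusted p = 0.0209). In female thoraxes it had 15.6, 14.3 and 15.1 scaled CPM in CBS-/-(5) against 5.98, 6.03 and 3.85 in the control, a log2 difference of 1.5 with an unadjusted p of 0.000921 and an adjusted p of 0.22. Its groups did not overlap in either sex. Ugt50B3 (1.94) and Ugt36F1 (1.37) were the other 2 genes with an unadjusted p under 0.05 in females.

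Ugt37B1 had 11.8, 11.4 and 10.1 scaled CPM in CBS-/-(5) male thoraxes against 40.4, 36.5 and 64.4 in control male thoraxes (log2 change -2.08 ± 0.249, edgeR adjusted p = 0.0198). The lower level of whole CBS-/-(5) males was thus also measured in the thorax. In female thoraxes its values, 8.62, 4.05 and 11.1 in CBS-/-(5) and 7.87, 2.35 and 15.3 in the control, overlapped. Ugt301D1 had 63.9, 59.5 and 61.9 scaled CPM in CBS-/-(5) male thoraxes against 123, 124 and 243 in control male thoraxes, without overlap (-1.40, adjusted p = 0.102). The 2 calls in males were lost with the replicate number as a block (adjusted p 0.0809 for Ugt36E1 and 0.103 for Ugt37B1), and they rested on few libraries: none was called without any 1 of the 3 CBS-/-(5) libraries or without control replicate 1, only Ugt37B1 was called without control replicate 2, and without control replicate 3, which had 4.56% of its reads on no gene, Ugt37B1, Ugt301D1 and Ugt36E1 were called. In females Ugt36E1 was called without control replicate 3. A single Malpighian tubule marker was higher in male thoraxes of CBS-/-(5), and no antennal marker was called in thoraxes of either sex. In tissue labelled thorax, antennal markers cannot show a change in antennae, and in female thoraxes no gene of any kind was called.

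**Figure D5:**
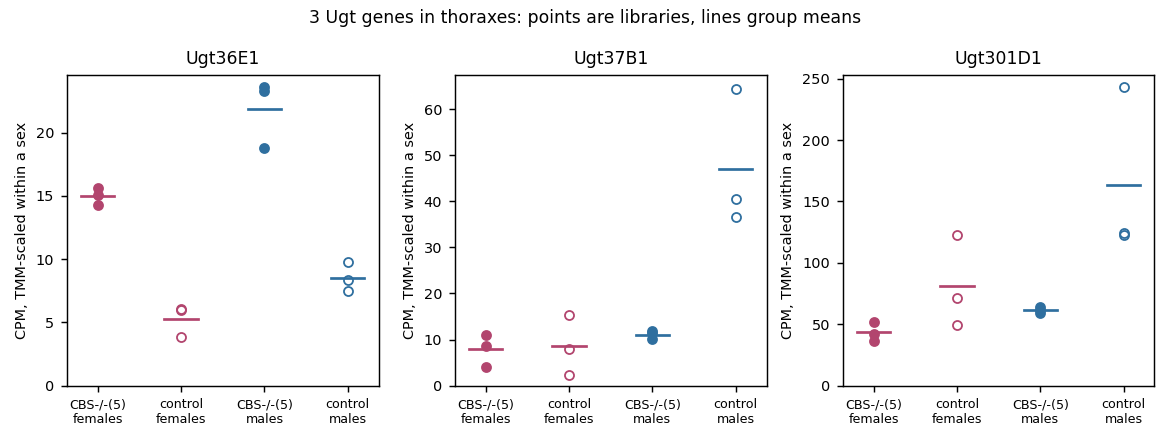
TMM-scaled CPM (linear axes from 0, scaled within a sex) of Ugt36E1, Ugt37B1 and Ugt301D1 in thoraxes of CBS-/-(5) (filled points) and control flies (open points); points are libraries and lines group means. Ugt36E1 is higher in CBS-/-(5) thoraxes of both sexes, and Ugt37B1 is apart from the control in males, at 10.1 to 11.8 against 36.5 to 64.4.

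Males labelled DD2 backcrossed on yw, in 2 libraries, were compared with DD2 males and with control males, in fits that share those groups with the comparisons above. Since these libraries carried Cbs at 33.3 to 34.4 CPM, against 0.0772 to 0.462 CPM in DD2 males and 55.1 to 61.5 CPM in control males, they were not treated as double deletions. Against DD2 males 5 genes were higher and 8 lower (21.1% of all genes were called), and against control males 5 were higher and 4 lower (16%). Ugt37A3 had 8.33 and 8.54 CPM in the backcrossed males against 103, 129 and 111 CPM in DD2 males (log2 difference -3.64 ± 0.326, edgeR adjusted p = 1.39e-07), and it was also below control males (-1.23). Ugt304A1 (-1.12) and Ugt303A1 (-0.88) were lower and Ugt317A1 (1.04) and Ugt301D1 (0.91) higher than in DD2 males. Ugt37B1, at 19.3 and 20.6 CPM, was below the control males (-1.05), near the 19.1 to 21.2 CPM of DD2 males. Ugt49C1 (0.78), Ugt36E1 (0.74) and Ugt36F1 (1.07) were above control males. Fewer Ugt genes were called against the control without the first of the backcrossed libraries, and against DD2 without the second. Each such fit leaves 1 backcrossed library and takes the spread from other groups, so its counts are not given. The Malpighian tubule markers summed to 121.1 to 141.3 CPM in the backcrossed males, against 1365 to 1436 CPM in DD2 males and 197.4 to 234 CPM in control males, and their part in the result was not tested.

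Genes that supply the UDP-sugar and genes of other conjugation and export steps were followed as a frame for the family. With libraries scaled over all genes, of 9 tested genes of UDP-sugar supply 7 were higher and 2 lower in DD2 females (66.3% of all genes called, median log2 change 0.47 against 0.02 over all genes). In the same fit CBS-/-(5) females had 3 of them higher and 1 lower (15.2%), CBS-/-(8) females had 2 and 1 (24.6%), and DD1 females had 3 and 0 (30.8%). Thorax-gene scaling, applied to these lists after the data were seen, did not keep this balance, with none higher in any of the 4 strains and 7 lower in DD2, 3 in CBS-/-(8), 2 in DD1 and none in CBS-/-(5). The median change in DD2 was then -0.56, against -0.98 over all genes. The remaining gene of the list, frc, was listed at 0 in every library. In males the list was mixed, with 2 higher and 2 lower in CBS-/-(5), 2 and 3 in CBS-/-(8), 1 and 3 in DD1, 1 and 2 in DD2 and 1 and 0 in CSE-/-. Pgm1, a phosphoglucomutase, fell in males of all 4 strains lacking CBS, with 401 to 488 CPM in DD2 males against 658 to 842 CPM in control males (-0.64, edgeR adjusted p = 0.00297). In CBS-/-(5) males its call was near the threshold (-0.37, edgeR adjusted p = 0.0469). There it was kept under thorax-gene scaling but lost with DESeq2, upper-quartile scaling, the replicate block, 2 groups only and subtraction of female RNA. sgl, the UDP-glucose dehydrogenase that makes UDP-glucuronate, rose in CSE-/-, CBS-/-(5), CBS-/-(8), DD1 and DD2 males. It had 75.8 to 88.2 CPM in CBS-/-(8) males against 38.6 to 42.1 CPM in control males (1.11, edgeR adjusted p = 5.39e-07). In DD1 and DD2 males sgl was 59.1 to 68.3 and 67.9 to 73.8 CPM. Its level was 75.0 to 80.0 CPM in control females, and the rise was called in the 4 strains lacking CBS under thorax-gene scaling and after subtraction of female RNA, while in CSE-/- it was not called under thorax-gene scaling (0.27, adjusted p = 0.0919). In DD2 females sgl was higher with scaling over all genes and lower (-0.79) with thorax-gene scaling. Mdr49, a drug efflux transporter, rose in females of the 4 strains lacking CBS, with 47.2 to 81.4 CPM in DD2 females against 17.4 to 23.5 CPM in control females (1.61, adjusted p = 0.000163), and it was called in all 4 under thorax-gene scaling as well (0.53 to 0.70). The sulphotransferases St1 and St2 fell in males of these strains, with St1 at 14.5 to 19.3 CPM in CBS-/-(5) males against 43.2 to 49.0 CPM in control males (-1.40, adjusted p = 3.51e-05). St2 also fell in CSE-/- and MST-/- males, and it was the only gene of both lists called by edgeR in MST-/- flies. That call (-2.79, edgeR adjusted p = 0.0169) was not made by DESeq2.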

How the data were processed

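RNA was sequenced from poly(A) libraries made with a strand-keeping kit. Per the labels and the study's methods, the authors trimmed reads with Trimmomatic 0.38, aligned them with STAR 2.5.0a to dm6 and counted them with featureCounts 1.5.0-p1, and they deposited the whole-number counts per gene. The counting annotation and strand setting were not given in the sources used here. Rows that name no gene (0.482 to 0.924% of reads in whole females, 0.799 to 1.618% in males, 2.257 to 37.544% in thoraxes) were left out. IDs were matched to symbols for 17253 of 17559 genes, with positions and exon lengths from the Ensembl BDGP6 annotation.

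Counts were tested with edgeR 4.0.16 (R 4.3.3, limma 3.58.1): TMM factors, filterByExpr (minimum count 10, total 15) and the quasi-likelihood test, with Benjamini-Hochberg adjustment over all genes tested and an adjusted p under 0.05. Whole females, whole males, thoraxes of each sex and the backcross males were fitted separately, and sex and tissue in fits of their own. The method was tested on simulated data. Alternatives were DESeq2 1.42.0, upper-quartile scaling, no filter, a replicate block, TMM over thorax genes, 2 groups only, subtraction of the female RNA estimated in males, and each library left out. Whole-body values are CPM over the counts on genes.

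Same-numbered libraries deviated together, with every correlation over 0.1, in DD1 against CBS-/-(5) females (0.269 to 0.51), between the control thoraxes of the sexes (0.362 to 0.691) and in control males between tissues (0.125 to 0.27), a pairing that the labels do not explain. The members, lists and tests were chosen with earlier results of these data known. Values per library are given for members with the largest changes above 5 CPM and no overlap with the control, members called in at least 4 strains of a sex, those called in thoraxes, and those leading in the control. Antenna, Malpighian tubule and other marker lists and the pathway lists came from general knowledge. The study had already reported changes of the tubule markers and of some antennal markers from these data. No pair of libraries of a group, of 57 pairs, held the same counts.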

Additional observations from a re-analysis of the deposited data

Results flagged for a closer look

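Changes that differed between the sexes under the same deletion, by the edgeR test of the difference, were found for 8 of the genes described library by library. Each is given in the strain where its difference was largest, as the log2 change in females minus that in males. Ugt37B1 differed by 2.44 in CBS-/-(8). In DD2, Ugt317A1 differed by 1.61, Ugt36D1 by 1.42, Ugt49B1 by 1.35, Ugt35B1 by 1.3 and Ugt303A1 by 1.17. In DD1, Ugt303B3 differed by 1.05 and Ugt35A1 by 0.99. The change was more positive in females in all 8. With TMM over thorax genes within each sex, a setting chosen after seeing the data, the difference was 1.96 for Ugt37B1, 0.80 for Ugt317A1, 0.56 for Ugt36D1 and 0.51 for Ugt49B1, each still called by edgeR, while the other 4 genes, at 0.35 to 0.45, were not.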

How the results depend on the processing

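No Ugt gene called in 2 settings changed direction, and of the values of single genes under an alternative 297 stayed on their side of the threshold and 28 lost it. These values were for genes described library by library, each in a comparison where it was called, so no gain was possible. Most were taken in the comparison where their change was largest, a choice that favours calls being kept. Over all members, thorax-gene TMM kept 4 of 13 higher calls in CBS-/-(5) females, 4 of 11 in CBS-/-(8), 3 of 13 in DD1 and 5 of 20 in DD2. Numbers of called Ugt genes moved more, for reasons that were not tested beyond what each setting does. Fitting 2 groups only, which leaves fewer libraries to estimate the spread, gave 1 in CBS-/-(5) females, 6 in CBS-/-(5) males, 7 in CSE-/- females, 8 in CSE-/- males, 0 in MST-/- females, 2 in MST-/- males, 0 in females and 1 in males for DD1 against CBS-/-(5), and 3 in females and 2 in males for DD2 against CBS-/-(8). Thorax-gene TMM gave 7 in CBS-/-(5) females, 7 in DD1 females, 12 in DD2 females, 0 in MST-/- females and 8 in CSE-/- males, and, within each sex, 2, 3 and 0 differences between the sexes in CBS-/-(5), DD1 and CSE-/-. Subtraction of female RNA gave 2 in CSE-/- males. DESeq2 gave 2 in female thoraxes and 5 in male thoraxes of CBS-/-(5), 4 between the sexes in thoraxes and 1 in MST-/- males. Without the filter 0 were called between the sexes in thoraxes and 1 sex difference in CSE-/-, and upper-quartile scaling gave 0 between the sexes in thoraxes.

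With the replicate block 0 genes were called in male thoraxes of CBS-/-(5), in place of 2; no other number moved by over 1.5 times.

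Leaving out 1 library at a time gave 0 to 1 in female and 0 to 3 in male thoraxes of CBS-/-(5), 8 to 17 in CBS-/-(5) females, 8 to 14 in CBS-/-(5) males, 1 to 2 in CSE-/- males, 0 to 1 in MST-/- females and 8 to 14 in DD1 females. For DD1 against CBS-/-(5) it gave 0 to 2 in females and 5 to 7 in males, and for DD2 against CBS-/-(8) 2 to 14 in females. The backcrossed males had 4 to 9 against the control and 8 to 12 against DD2. Sex differences numbered 4 to 16 in CBS-/-(5), 7 to 12 in CBS-/-(8), 0 to 2 in CSE-/- and 7 to 12 in DD1, and 0 to 3 genes were called between the sexes in thoraxes. The 5 members under 1 CPM had the fewest counts, so their values are the least precise.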
